A study of Mus musculus with 6 samples.

Results

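The immunoglobulin heavy chain and lambda light chain loci were followed with 50 of the 55681 probes of a mouse expression array. A probe was taken if its gene name began with Igh, Iglv, Iglc or Igl-, or if its description named an immunoglobulin heavy or lambda chain, and the probes of Ighmbp2 and Igll1 were left out. By their names and descriptions, 8 of these probes lay in heavy chain constant regions, 36 in heavy chain variable segments or regions, 3 in lambda constant regions and 2 in lambda variable segments, and 1 heavy chain cDNA named neither. One-colour signals came from 1676 cells, a mouse pre-B cell line grown out of the bone marrow of SLP-65-/- LAT-/- animals, so all groups lack both adaptors of the signalling chain below the pre-B cell receptor. The cells were kept in excess IL-7, which was obtained as culture supernatant of J558L cells, and had been selected with puromycin after retroviral infection. The control group carried a control vector, the miR-26a group expressed hsa-miR-26a-2, and the sponge group expressed a transcript that sequesters miRNAs of the miR-26 family. Each group had 2 arrays, numbered replicate 1 and replicate 2 and described in the methods as biological replicates of independent experiments.

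A heavy chain gene is assembled in B cell precursors, first by joining of D and J segments and then by joining of a V segment upstream of them. The mu constant region lies next to the J segments, and the variable segments extend from there over a long stretch of the chromosome. Unrearranged V segments can also be transcribed from their own promoters, and such germline transcripts are a known feature of accessible loci in pro-B cells. In pre-B cells the mu chain pairs with the surrogate light chain made of lambda5 (Igll1) and VpreB, and the light chain loci, kappa and then lambda, rearrange later. A probe in a V segment reports any transcript that holds its bases, rearranged or not.

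The lambda probes lay on chromosome 16 between 19065462 and 19241363 (mm9), and 40 heavy chain probes lay on chromosome 12. All 45 probes with a position were on the minus strand, and 5 had none. The 8 constant probes of the heavy chain lay between 114523536 and 114659689, and the 26 variable probes that name a segment between 115286517 and 117238485. Each of the 36 probes whose description gives a segment or constant gene matched a symbol of the RefSeq table (assembly GRCm38.p6), which was used for names only. One of them carried the array name Ighv14-2, whereas its description and position (chromosome 12, 114654277 to 114654336) were those of the membrane form of the delta constant region, and it is called Ighd here. Further, 3 probes named after the J558 variable family lay between 114496985 and 114498407, on the far side of the gamma constant probes and away from the variable segments, and none of them was above background on any array.

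Because V segments of a family resemble each other, the probe sequences decide how far their signals can be told apart. The following probes of the V1 family share the 21 bases in capitals. With miR-26a, Ighv1-83 and Ighv1-20 were called lower and Ighv1-5 was not called, as described further on.
Ighv1-83 (12, 117202095 to 117202154): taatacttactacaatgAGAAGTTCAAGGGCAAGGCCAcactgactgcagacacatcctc
Ighv1-20 (12, 115962048 to 115962107): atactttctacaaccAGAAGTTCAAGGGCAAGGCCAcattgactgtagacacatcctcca
Ighv1-5 (12, 115751612 to 115751671): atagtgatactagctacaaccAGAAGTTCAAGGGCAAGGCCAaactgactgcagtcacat
The next probes of the same family share 24 bases, in capitals, and both showed large differences between the groups.
Ighv1-7 (12, 115776734 to 115776793): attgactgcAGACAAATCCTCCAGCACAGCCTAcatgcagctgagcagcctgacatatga
Ighv1-67 (12, 116842179 to 116842238): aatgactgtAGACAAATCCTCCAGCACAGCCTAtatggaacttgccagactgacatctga

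The probe of Ighv14-3 covered the end of its V segment, with the Tyr-Tyr-Cys codons ahead of the joining site in capitals.
Ighv14-3 (12, 115298056 to 115298115): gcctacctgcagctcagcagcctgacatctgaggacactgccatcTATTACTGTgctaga
The 9 bases TATTACTGT were searched on both strands and were present in 3 of the 36 heavy chain variable probes and in 0.144% of all probes. The lambda constant 3 gene had overlapping probes, whose common 42 bases are in capitals, so that they do not measure that gene independently.
Iglc3 probe 1 (16, 19065462 to 19065521): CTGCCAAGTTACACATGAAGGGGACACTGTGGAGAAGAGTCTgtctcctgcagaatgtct
Iglc3 probe 2 (16, 19065480 to 19065539): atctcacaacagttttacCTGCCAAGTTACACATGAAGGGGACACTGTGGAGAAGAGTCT

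The microRNA expressed in the miR-26a group is known for repression through its seed, in capitals in the mouse mature sequence of RefSeq.
mmu-miR-26a-5p: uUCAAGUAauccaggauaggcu

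All 6 arrays were on the same slide and scanned together, with replicate 1 arrays in the same row and replicate 2 arrays in the other row and each group in a column of its own, so that slide column and group cannot be told apart, nor slide row and experiment. Replicate arrays correlated at 0.996 to 0.997 over the probes tested. The pre-B cell markers Igll1 and Vpreb1 were above background on all arrays. Of 7 plasma cell genes, Igj and Tnfrsf17 were above background on no array, while Prdm1, Xbp1, Sdc1, Mzb1 and Irf4 were above it on all. Of 5 genes of mature B cells, Ms4a1 was above background on no array, Ciita on 4, and Cr2, Fcer2a and Cd22 on all. Among 5 T cell genes, Cd3e and Cd4 were above background on all arrays, Cd3d on 2, and Cd3g and Cd8a on none, and among 5 myeloid genes Itgam and Csf1r were above it on all, Lyz2 and Mpo on 1 and Cd14 on none. Probes of the deleted adaptors gave signal on all 6 arrays (Blnk, which encodes SLP-65, at log2 14.90 to 15.61 and Lat at log2 10.10 to 10.30). Whether these probes lie in the deleted exons is not given in the sources used here, so they do not check the genotype.

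Of the 50 heavy and lambda probes, 25 were above background on all 6 arrays, 6 on some arrays and 19 on none. The 18 that also had a processed signal over 50 on at least 4 arrays entered the tests, 2 heavy constant, 13 heavy variable and 3 lambda constant probes. Levels are given as quantile-normalised log2 signals, and changes as log2 differences with the standard error of the limma fit across all 20168 probes tested. A change was called at an adjusted p under 0.05, with Benjamini-Hochberg adjustment over all probes tested and the experiment as a block. Signals of different probes are not compared as levels, since probes differ in how strongly they bind.

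**Figure D1:**
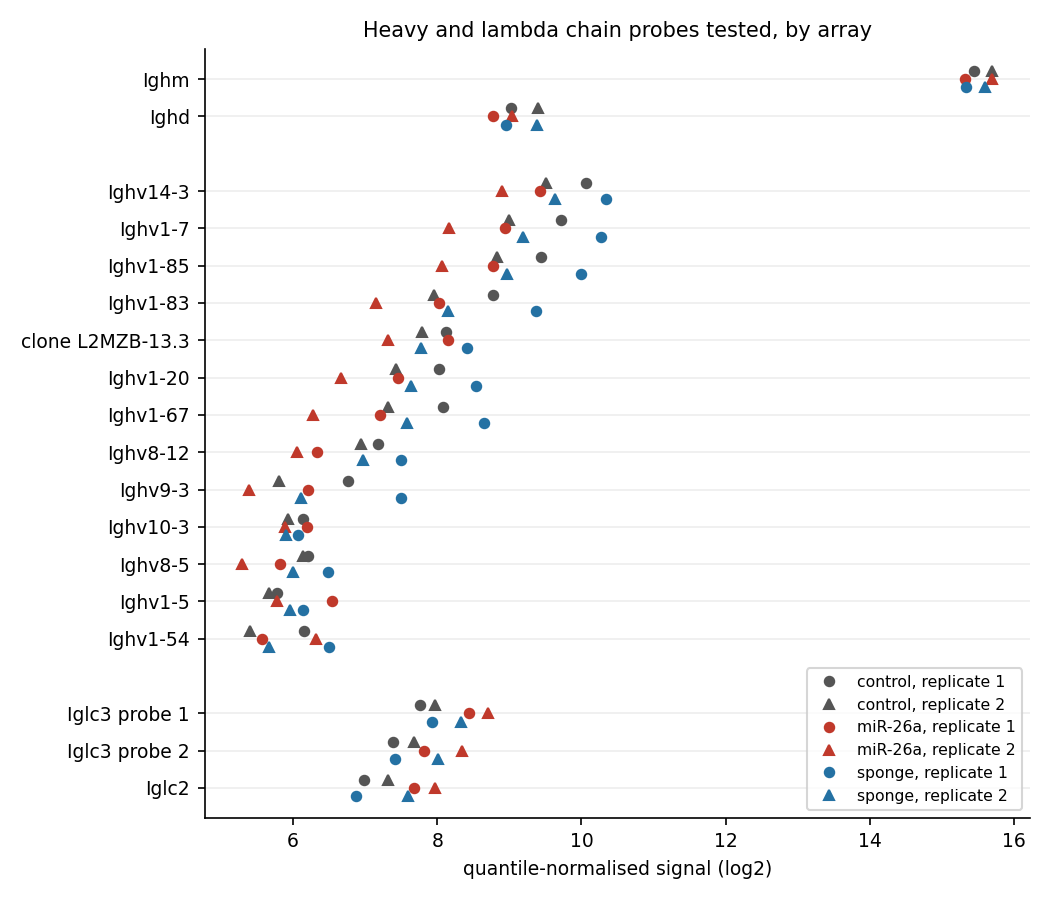
Quantile-normalised log2 signal (horizontal axis) of the 18 heavy and lambda chain probes tested, with 1 symbol per array, grey for control, red for miR-26a and blue for sponge, circles for replicate 1 and triangles for replicate 2. The heavy constant probes are on top, the heavy variable probes in the middle and the lambda constant probes at the bottom; for Ighv14-3 the miR-26a arrays sit at 9.42 and 8.90 and the control arrays at 10.06 and 9.51, while for Iglc2 the miR-26a arrays lie to the right of the control arrays.

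The mu constant region was above background on all arrays, and its probe did not pass the test in any comparison of the groups. The Ighm probe, in the constant region of IgM that forms the pre-B cell receptor, read 15.45 and 15.69 on the control arrays, 15.33 and 15.70 on the miR-26a arrays and 15.34 and 15.60 on the sponge arrays. The groups overlapped, and within each group replicate 2 was the higher array. The change of Ighm was -0.06 ± 0.07 with miR-26a (adjusted p = 0.666, limma) and -0.10 ± 0.07 with the sponge (adjusted p = 0.512). For Ighd, the constant region of IgD that is spliced from the same primary transcript as mu, the control arrays read 9.03 and 9.40, the miR-26a arrays 8.78 and 9.04 and the sponge arrays 8.95 and 9.38. The change with miR-26a was -0.30 ± 0.07 and did not pass the test (adjusted p = 0.0642). It passed with another background correction and with array weights, with adjusted p = 0.0372 and 0.0433. With the other alternatives of the fit and filter it did not pass. Its adjusted p was 0.518 without the replicate block and 0.127 when all probes above background on all arrays were tested (limma).

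Transcripts of the switched isotypes were near the floor of the arrays. An IgG2a cDNA probe was above background on all 6 arrays but too dim to be tested, at 4.16 and 3.94 in control, 4.26 and 3.79 with miR-26a and 3.96 and 4.29 with the sponge. A gamma polypeptide probe was above background on 1 array, with values from 2.75 to 3.73. The other 4 gamma constant probes, both Ighg1 probes, Ighg2c and a further IgG2a cDNA probe, were not well above background on any array. No difference between the groups can be read from these 6 probes.

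Among the 36 heavy variable probes, 13 were bright enough to test, and most of these were lower with miR-26a. Of the 13 heavy variable probes tested, 8 were called lower in miR-26a than in control cells and none higher, beside 5.14% of all probes called lower and 4.5% called higher. The median change was -0.62 over the 13 variable probes, -0.18 over the 2 heavy constant probes and 0.01 over all probes tested. In 6 of the 13, both miR-26a arrays lay under both control arrays, beside 22.9% of all probes. The called changes ran from -0.62 to -0.96, or 1.53-fold to 1.94-fold lower signal. The arrays measured whole cultures, so fewer cells with a transcript and less of it per cell cannot be told apart. By the study's design, cell clones were generated independently for each repetition, so rearranged variable segments could differ between repetitions. Whether the cultures differed in their rearranged segments was not tested.

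The largest change was that of Ighv1-67 of the large V1 (J558) family. It read 8.08 and 7.32 on the control arrays, 7.21 and 6.28 on the miR-26a arrays and 8.65 and 7.57 on the sponge arrays, and fell by 0.96 with miR-26a (SE 0.09, adjusted p = 0.0075). Replicate 1 was above replicate 2 in each group, and the drop was present in both experiments, -0.88 and -1.04. Its relative Ighv1-7 read 9.71 and 8.99 in control, 8.94 and 8.16 with miR-26a and 10.27 and 9.19 with the sponge, and changed by -0.80 ± 0.10 with miR-26a (adjusted p = 0.0139). The miR-26a arrays of both probes lay under their control arrays.

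Other segments moved in the same direction. The signal of Ighv8-12, of the small V8 family, was 7.18 and 6.94 in control, 6.33 and 6.06 with miR-26a and 7.49 and 6.97 with the sponge, a change of -0.86 ± 0.09 with miR-26a (adjusted p = 0.0086). The Ighv14-3 probe read 10.06 and 9.51 in control, 9.42 and 8.90 with miR-26a and 10.34 and 9.63 with the sponge, a change of -0.62 ± 0.08 (adjusted p = 0.0124). In these segments too, the miR-26a arrays did not overlap with the control arrays. Ighv1-85, which lies farthest from the constant regions among the members, fell by 0.71 (SE 0.11, adjusted p = 0.0224), from 9.44 and 8.83 to 8.78 and 8.07. Ighv8-5 fell by 0.62 (SE 0.12, adjusted p = 0.0402), from 6.21 and 6.14 to 5.82 and 5.29.

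In Ighv1-83 and Ighv1-20, the experiments differed by as much as the groups, and the miR-26a arrays overlapped with the control arrays. Differences between the experiments were as large in Ighv1-7 (-0.86, beside -0.80 with miR-26a) and Ighv1-85 (-0.78 and -0.71). They were nearly as large in Ighv1-67 (-0.92 and -0.96) and Ighv14-3 (-0.59 and -0.62). In Ighv8-12 (-0.35 and -0.86) and Ighv8-5 (-0.36 and -0.62) they were smaller. Ighv1-83 read 8.78 and 7.96 in control, 8.03 and 7.15 with miR-26a and 9.38 and 8.15 with the sponge. Ighv1-20 read 8.02 and 7.43 in control, 7.46 and 6.66 with miR-26a and 8.54 and 7.64 with the sponge. Replicate 1 of the miR-26a group thus lay just above replicate 2 of the control group, and only within an experiment were the miR-26a arrays lower. Their changes were -0.78 ± 0.11 (adjusted p = 0.0184) and -0.66 ± 0.09 (adjusted p = 0.0164).

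The remaining 5 variable probes were not called. Ighv1-5, which shares 29 bases in a row with Ighv1-20, read 5.77 and 5.67 in control, 6.54 and 5.78 with miR-26a and 6.14 and 5.95 with the sponge, a change of 0.44 ± 0.16 with miR-26a (adjusted p = 0.16). Its direction was thus opposite to that of the Ighv1-20 probe. Ighv10-3 changed by 0.01 ± 0.07, with all 6 arrays between 5.89 and 6.19, and Ighv1-54 by 0.17 ± 0.38, with opposite signs in the experiments. The probe of a V region cDNA, clone L2MZB-13.3, changed by -0.22 ± 0.12 (adjusted p = 0.317). Ighv9-3 read 6.76 and 5.81 in control, 6.20 and 5.39 with miR-26a and 7.49 and 6.10 with the sponge, a change of -0.48 ± 0.14 that missed the threshold (adjusted p = 0.0977).

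These calls rested on the experiment block and on both control arrays. Without the replicate block, 0 of the 13 variable probes were called, since the experiments then entered the spread. When control replicate 1 was left out, 1 was called, and without control replicate 2 none. When a miR-26a or sponge array was left out, 7 or 8 of the 8 calls remained. The change of Ighv1-54 was 0.94 without miR-26a replicate 1 and -0.60 without miR-26a replicate 2, so its sign depended on the array left out. For Ighv1-5 the change was 0.13 without miR-26a replicate 1 and 0.75 without miR-26a replicate 2.

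**Figure D2:**
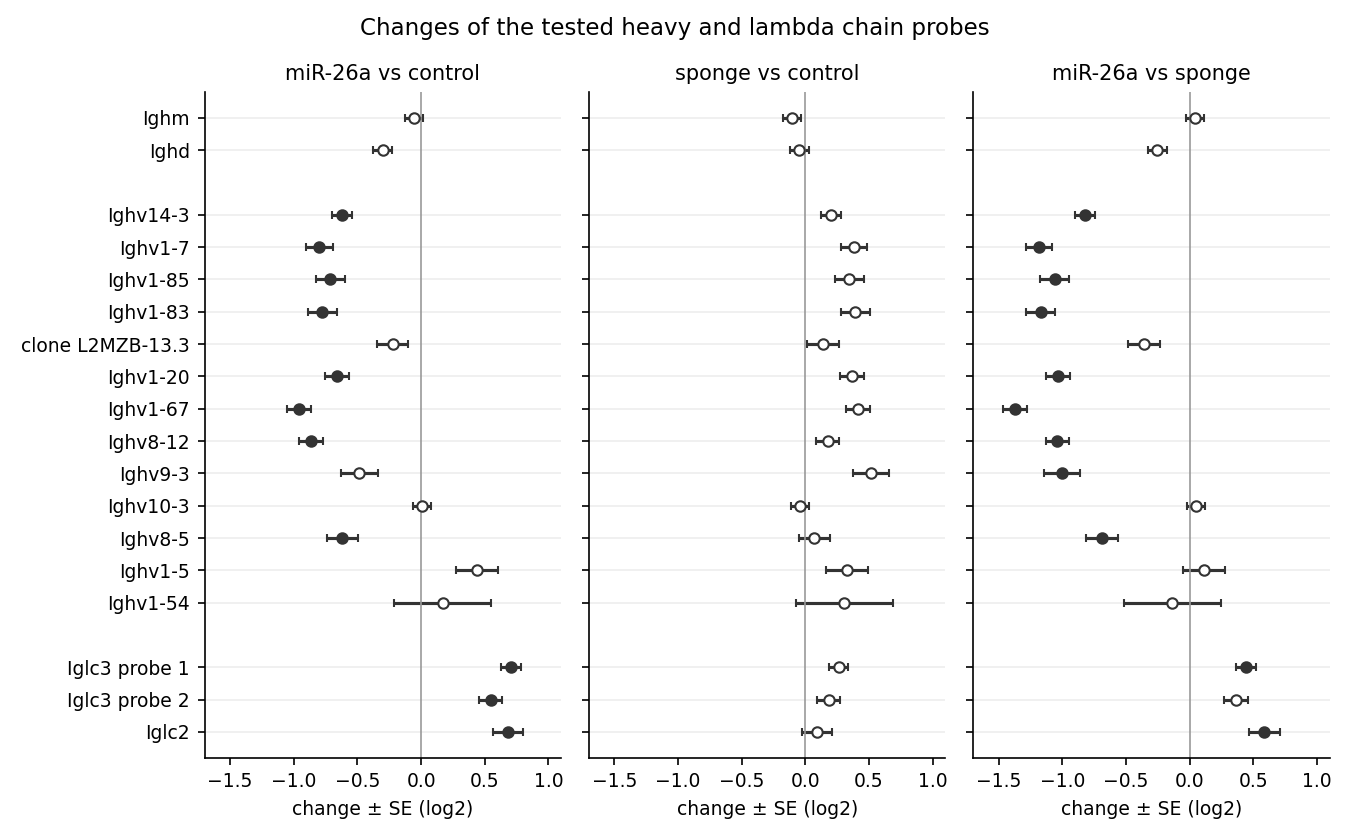
Log2 change (horizontal axis) of the 18 tested probes in the 3 comparisons of groups, with the standard error of the limma fit as bars. Filled circles mark an adjusted p under 0.05: 8 heavy variable and 3 lambda constant probes in miR-26a against control, none in sponge against control, and 9 heavy variable and 2 lambda constant probes in miR-26a against sponge.

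With the sponge, no heavy or lambda probe was called, beside 0% of all probes called lower and 0.00992% called higher. The comparison uses the same control arrays as that of miR-26a, so the changes in both are not independent. At an unadjusted p under 0.05, 7 of the 13 variable probes were higher with the sponge and none lower, beside 7.38% of all probes higher and 8.72% lower, and of the 3 lambda constant probes 1 was higher. The median change of the variable probes was 0.33. The smallest adjusted p was that of Ighv1-67, which changed by 0.41 ± 0.09 (adjusted p = 0.221), and the largest change was that of Ighv9-3, 0.52 ± 0.14 (adjusted p = 0.233). Within replicate 1, 10 of the 13 variable probes were ordered sponge over control over miR-26a, and within replicate 2, 8 of 13, beside 21.1% and 21.3% of all probes.

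The direct comparison of miR-26a with the sponge called 9 of the 13 variable probes lower and none higher. Its log2 differences do not use the control arrays. Its standard errors and adjusted p do, since all 6 arrays share the same estimate of the spread. Of all probes, 8.49% were called lower and 8.28% higher. Ighv1-67 fell by 1.37 (SE 0.09, adjusted p = 0.0026), Ighv1-7 by 1.18 (SE 0.10, adjusted p = 0.0040) and Ighv1-83 by 1.17 (SE 0.11, adjusted p = 0.0049). For Ighv9-3 the difference was -1.0 ± 0.14 (adjusted p = 0.0127), and here it passed the test. In 8 of the 13 probes both miR-26a arrays lay under both sponge arrays, beside 22.9% of all probes. The median difference was -1.0 for the variable probes, -0.11 for the heavy constant probes and 0.02 for all probes. When any of the 6 arrays was left out, at least 7 of these 9 calls remained, the fewest without sponge replicate 1. Without miR-26a replicate 1, Ighv1-54 was called higher in addition, and without miR-26a replicate 2, Ighv1-5. Without the replicate block, 1 variable probe was called.

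The lambda constant regions changed in the opposite direction. Each of the 3 lambda constant probes was called higher with miR-26a, with changes between 0.55 and 0.70 and a median of 0.68, which is 1.46-fold to 1.63-fold more signal. Of all probes, 4.5% were called higher and 5.14% lower. Lambda constant 3, Iglc3, read 7.77 and 7.97 in control, 8.44 and 8.71 with miR-26a and 7.93 and 8.33 with the sponge by its probe 1, a change of 0.70 ± 0.08 with miR-26a (adjusted p = 0.0091). The overlapping probe 2 read 7.39 and 7.68 in control, 7.82 and 8.34 with miR-26a and 7.42 and 8.01 with the sponge, a change of 0.55 ± 0.09 (adjusted p = 0.0264). In both, the miR-26a arrays lay above the control arrays, and the sponge arrays overlapped with the control arrays. Lambda constant 2, Iglc2, read 6.98 and 7.31 in control, 7.68 and 7.97 with miR-26a and 6.88 and 7.60 with the sponge, a change of 0.68 ± 0.12 (adjusted p = 0.0278). Against the sponge, probe 1 of Iglc3 was higher with miR-26a by 0.44 ± 0.08 (adjusted p = 0.0198) and Iglc2 by 0.59 ± 0.12 (adjusted p = 0.0291).

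Of the lambda variable segments, Iglv1 was above background on all 6 arrays but too dim for the test. It read 4.69 and 4.83 in control, 5.67 and 5.79 with miR-26a and 5.24 and 5.30 with the sponge, so that the groups did not overlap. With a test of all probes above background on all arrays, in which 0.777% of 24974 probes were called higher and 1.55% lower, Iglv1 was higher with miR-26a by 0.96 ± 0.07 (adjusted p = 0.0324). Under this setting 1 of the 3 lambda constant and 3 of the 8 heavy variable calls remained. Of the 6 heavy chain members it tested in addition, a J558 variable cDNA probe was called lower, with a change of -0.54 (adjusted p = 0.0460), while Ighv9-2 changed by 0.30 (adjusted p = 0.141). Iglv3 was not above background on any array. The probe of Igll1, the constant-like chain of the surrogate light chain and a relative of the lambda constant regions, read between 15.73 and 15.83 on all arrays and changed by -0.03 with miR-26a. No probe outside the members shared 20 bases in a row with a lambda constant probe. No lambda constant probe was called when either control array was left out or without the replicate block, and 2 of the 3 were called when any other array was left out.

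Of the mature B cell genes, Cr2, which encodes complement receptors, read 8.17 and 8.34 in control, 9.33 and 9.53 with miR-26a and 8.21 and 8.45 with the sponge, and was higher with miR-26a by 1.18 ± 0.07 (adjusted p = 0.0031). The summed signal of the 5 mature B cell genes was log2 8.88 to 9.13 in control, 9.67 to 9.87 with miR-26a and 8.76 to 9.16 with the sponge. Cr2 was the brightest of the 5, so the sum mostly follows this gene. Cd22, the other of these genes tested, changed by -0.19 (adjusted p = 0.138), and Ms4a1 was not above background. Among those not tested, Ciita was lower with miR-26a, at 4.67 and 5.15 in control and 3.03 and 3.77 with miR-26a. Fcer2a read 5.03 and 5.33 in control and 5.71 and 5.37 with miR-26a. The 5 genes thus did not rise as a set. Their part in the lambda result was not tested.

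The variable segments also differed between the experiments. In replicate 2 compared with replicate 1, all 13 variable probes were lower on average, and 8 were called, beside 1.57% of all probes called lower and 1.75% called higher. The median difference was -0.60 for the variable probes and -0.01 for all probes. The largest was that of Ighv9-3, -1.05 ± 0.12 (adjusted p = 0.0369), with all 3 replicate 2 arrays under all 3 replicate 1 arrays. Ighv1-83 differed by -0.98 ± 0.09 (adjusted p = 0.0349), Ighv1-67 by -0.92 ± 0.08 (adjusted p = 0.0301) and the clone L2MZB-13.3 by -0.60 ± 0.10 (adjusted p = 0.0464), in each group with the same sign. The remaining calls were Ighv1-7, Ighv1-85, Ighv1-20 and Ighv14-3, from -0.59 to -0.86.

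Of the 5 constant probes tested, 2 were called between the experiments, both higher in replicate 2. Ighd was called higher in replicate 2, by 0.36 ± 0.06 (adjusted p = 0.0472), and so was probe 2 of Iglc3, by 0.47 ± 0.08 (adjusted p = 0.0446). Ighm was higher in replicate 2 by 0.30 ± 0.06, in each of the 3 groups and without overlap, and missed the threshold (adjusted p = 0.0592). Iglc2 and probe 1 of Iglc3 were also higher in replicate 2 in every group, by 0.45 ± 0.10 (adjusted p = 0.0674) and 0.29 ± 0.06 (adjusted p = 0.0682). With miR-26a against control, Ighd and Ighm were not called and changed by -0.30 and -0.06, opposite in direction to their differences between the experiments. In both comparisons, every call among the heavy variable probes was lower and every call among the constant probes higher. With miR-26a those constant calls were all lambda probes, and between the experiments they were Ighd and probe 2 of Iglc3. No call of this kind was left when a control or sponge array was omitted, and 9 variable probes were called without either miR-26a array.

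**Figure D3:**
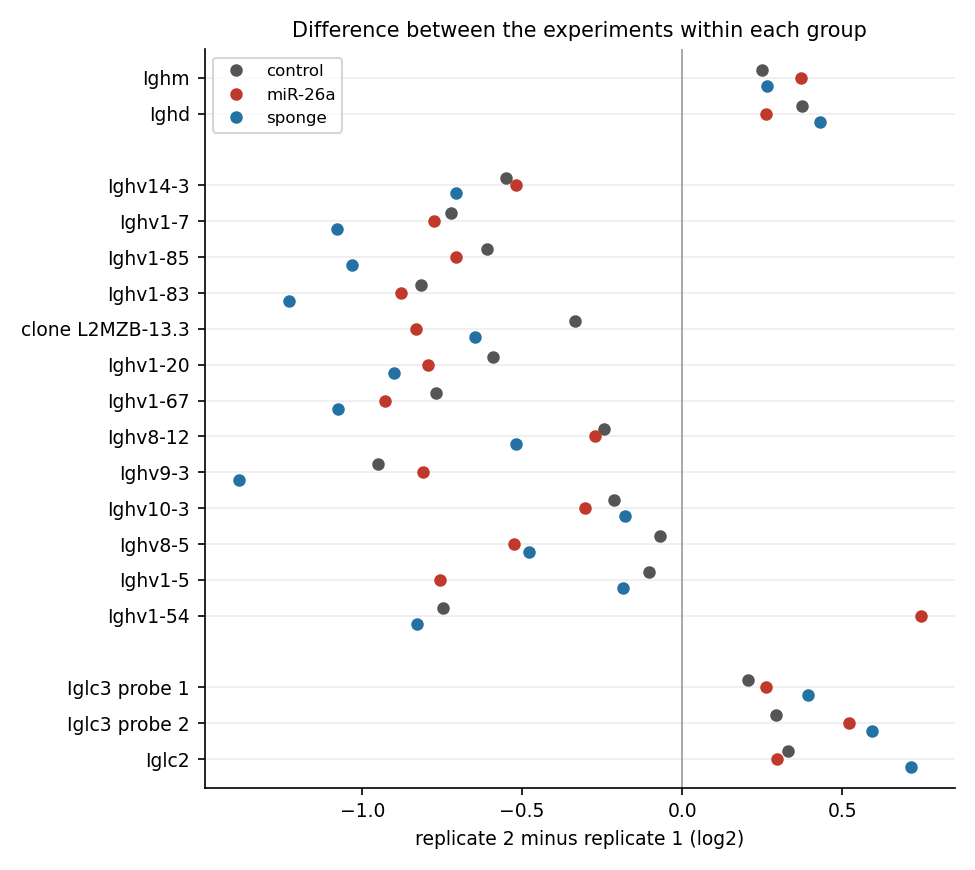
Replicate 2 minus replicate 1 (log2, horizontal axis) of the 18 tested probes within the control (grey), miR-26a (red) and sponge (blue) groups. Heavy variable probes lie to the left of 0 in all groups except Ighv1-54 with miR-26a, at 0.75, and the heavy and lambda constant probes lie to the right of 0 in all groups.

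Along the chromosome, the variable probes called lower with miR-26a spread from 638 kb (Ighv14-3) to 2579 kb (Ighv1-85) from the Ighm probe. Between them lay probes that were not called, Ighv9-3 at 719 kb, Ighv1-5 at 1092 kb, Ighv10-3 at 1102 kb, the clone L2MZB-13.3 at 1191 kb and Ighv1-54 at 1772 kb. The 4 tested members farthest from Ighm, namely Ighv1-67, Ighv8-12, Ighv1-83 and Ighv1-85, were all called. The probes called and those not called had a similar base content, with a median of 45% and 46.7% G and C.

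The array held 58 further probes described only as predicted genes, whose numbers are RefSeq synonyms of V segments, so that the name rule had not taken them. This set was put together after their values had been seen. Of its 20 tested probes, 9 were called lower with miR-26a and none higher, beside 5.14% and 4.5% of all probes, with a median of -0.53, and 0 were called with the sponge by limma. At an unadjusted p under 0.05, 7 were higher with the sponge and 2 lower. Between the experiments, 15 were called lower in replicate 2 and 1 higher, beside 1.57% and 1.75% of all probes. Ighv1-55 changed most with miR-26a, by -1.03 (adjusted p = 0.0066), from 8.67 and 8.03 to 7.71 and 6.93. Of the probes outside the rule, 4 share a run of at least 20 bases with Ighv1-85 and 4 with Ighv1-83, so such probes are not independent of the members.

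In this set, the tested probes nearest to the constant regions were not called with miR-26a. Ighv5-17, at 438 kb (115097549 to 115097608), read 12.80 and 13.12 in control, 12.73 and 13.08 with miR-26a and 12.48 and 12.76 with the sponge, and changed by -0.05 ± 0.07 with miR-26a (adjusted p = 0.675). Like Ighm, it was higher in replicate 2 in every group, by 0.32 on average (adjusted p = 0.0476). A neighbouring probe of the same segment, at 115097448 to 115097507, was not above background on any array, with values from 1.24 to 1.27, so the probes of Ighv5-17 disagree. Against the sponge, Ighv5-17 was higher with miR-26a by 0.29 (adjusted p = 0.0408). Ighv4-1, at 527 kb, read 10.60 and 10.75 in control, 10.38 and 10.79 with miR-26a and 10.21 and 10.50 with the sponge, and changed by -0.09 with miR-26a (adjusted p = 0.56). Ighv14-2, at 573 kb, changed by -0.27 and was not called. Among the called probes farther out lay others that were not called, such as Ighv14-4 at 755 kb (0.07), Ighv10-1 at 1058 kb (0.14) and Ighv1-47 at 1570 kb (-0.10).

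**Figure D4:**
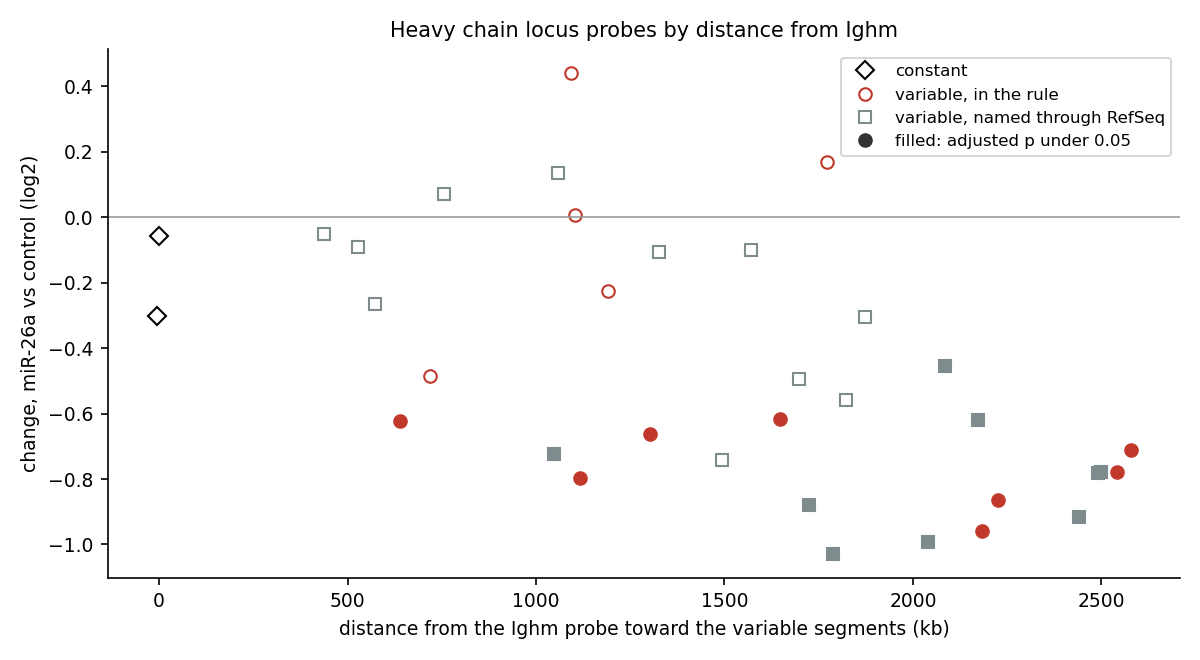
Log2 change in miR-26a against control (vertical axis) of tested heavy chain probes against their distance from the Ighm probe toward the variable segments (kb, horizontal axis), with diamonds for constant probes, circles for variable probes of the rule and squares for V segments named through RefSeq. Filled symbols mark an adjusted p under 0.05 and lie between 638 and 2579 kb, while Ighv5-17 at 438 kb and Ighv4-1 at 527 kb are open and near 0. Other open symbols lie among the filled ones.

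Genes of the proteins that pair with the heavy chain showed no called change. None of the 6 genes examined (Igll1, Vpreb1, Vpreb2 and Vpreb3 of the surrogate light chain and its relatives, and Cd79a and Cd79b, the signalling chains of the receptor) was called in any comparison by limma. Of all probes, 5.14% were called lower and 4.5% higher with miR-26a against control, and 8.49% and 8.28% against the sponge. No call among 6 genes is near these shares. At an unadjusted p under 0.05, Cd79a was lower with miR-26a, and Cd79a and Cd79b were higher in replicate 2. With miR-26a their changes lay between -0.18 for Cd79a and 0.04 for Vpreb2.

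Of 24 tested genes that act on the immunoglobulin loci, each taken by its brightest probe, 6 were called lower and 1 higher with miR-26a, beside 5.14% and 4.5% of all probes. The recombinase genes were among them: Rag1 fell by 2.47 (SE 0.20) and Rag2, its partner, by 3.36 (SE 0.10), with adjusted p = 0.0056 and 0.0010. Dntt, the terminal transferase that adds bases at the joints, fell by 1.12 (adjusted p = 0.0055). Irf4, a factor for light chain opening, fell by 1.19 (adjusted p = 0.0048), Ezh2, the histone methyltransferase of the Polycomb complex, by 0.50 (adjusted p = 0.0207), and Bach2, a repressor of plasma cell genes, by 0.42 (adjusted p = 0.0430). Pou2f2, the octamer factor Oct-2, whose motif is part of V segment promoters, was higher by 0.53 (adjusted p = 0.0280). Pax5, Ebf1, Tcf3, Ikzf1, Yy1, Ctcf and Rad21, factors of locus contraction and B lineage identity, were not called, with changes from -0.23 to 0.03. None of the 24 was called with the sponge, and between the experiments Bach2 alone was called, higher in replicate 2 by 0.48 (adjusted p = 0.0427). At an unadjusted p under 0.05, 11 of the 24 changed with miR-26a, Pax5 among them, 2 with the sponge and 9 between the experiments. The part of these genes in the changes of the immunoglobulin probes was not tested.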

How the data were processed

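RNA of 6 cultures was measured on 6 one-colour Agilent mouse arrays, 2 a group. Per array, the authors deposited a scanner file, made with Agilent Feature Extraction 10.7.1.1 according to the submitters' processing notes, with the intensity of every spot as mean, local background and processed signal and a background flag. A deposited table of quantile-normalised intensities is on a linear scale. Positions are those of the array design (mm9).

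Processed signals of the spots were quantile-normalised, taken to log2 and averaged per probe without outlier spots. Probes were tested if well above background on at least 1 array with a signal over 50 on at least 4 arrays (20168 of 55681). Limma 3.58.1 in R 4.3.3 was fitted to all 6 arrays with the replicate number as a block, following the methods, which normalise to the control of each experiment. Same-numbered arrays deviated together from their group means (r = 0.38, 0.59 and 0.45). The fit was tested on simulated data. The cultures of a group come from the same cell line, with cell clones generated independently for each repetition. The number of arrays limits the precision.

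Members and gene lists were chosen with earlier results of these data known. Named were all constant probes above background on any array, the 10 variable probes with the highest mean signal, and called members. The rest of the variable probes tested and all probes outside the rule were named after their values were seen. Some genes of the fixed lists are not reported here.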

Additional observations from a re-analysis of the deposited data

How the results depend on the processing

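The 32 called changes of heavy and lambda probes kept their sign in all 428 values under the 14 alternatives, and 253 of these were still called. The 40 changes not called took the other sign in 18 of 544 values and were called in 21. Without the replicate block, 311 probes of the whole array were called for miR-26a against control and 997 for miR-26a against sponge (1944 and 3381 with it), with 0 and 1 heavy variable and 0 and 0 lambda constant probes. The unpaired t-test, which the study names for other measurements, and the fit without a filter called 0 probes in every comparison they could be run for, where 8, 9 and 8 heavy variable, 3, 2 and 1 lambda constant and, between the experiments, 1 heavy constant probe were called. When all probes above background on all arrays were tested, 581, 0, 1530 and 0 probes were called (miR-26a and sponge against control, miR-26a against sponge, replicate 2 against 1), with 4 heavy variable and 1 lambda constant probe for miR-26a against control, 0 lambda constant probes against the sponge and 0 members between the experiments. Scaling to the 75th percentile called 4 probes for the sponge and 1186 between the experiments, with 2 lambda constant probes. Normexp called 36 and 1527, with 2 heavy constant and 2 lambda constant probes between the experiments and 1 heavy constant probe for miR-26a against control and against sponge. Array weights called 1053 between the experiments, with 2 heavy constant probes, and 1 heavy constant probe for miR-26a against control. The cause of these shifts was not tested.

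Leaving out each array in turn gave 104 to 1599 probes for miR-26a against control, 0 to 35 for the sponge, 410 to 2436 for miR-26a against sponge and 0 to 1384 between the experiments. Heavy variable calls ranged from 0 to 10, 7 to 11 and 0 to 9 in the comparisons of miR-26a with control and sponge and between the experiments, lambda constant calls from 0 to 2 in each, and heavy constant calls between the experiments from 0 to 1. Without control replicate 1 or 2, without sponge replicate 1 or 2, 0 probes were called between the experiments. A group left with 1 array was assumed to vary like the others. Signals near background limit what can be read from the 32 members not tested.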

Other observations

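On the constant side of the locus, 8 named genes had a tested probe within 300 kb of the outermost heavy chain probe. Of these, 3 were called lower with miR-26a and none higher, beside 5.14% and 4.5% of all probes. Tmem121, a transmembrane protein gene 69.3 kb away, read 12.23 and 12.10 in control, 10.23 and 10.34 with miR-26a and 12.21 and 12.19 with the sponge, a change of -1.88 ± 0.08 (adjusted p = 0.0020, limma). Crip1, which encodes a small LIM domain protein, changed by -0.80 ± 0.07 (adjusted p = 0.0068) and its neighbour Crip2 by -1.08 ± 0.10 (adjusted p = 0.0066). The miR-26a arrays of all 3 genes lay under the control arrays. Between them lies 4930427A07Rik, with a change of -0.29 ± 0.07 (adjusted p = 0.0575), and Mta1, Pacs2, Btbd6 and Brf1 farther out were not called, with changes from -0.15 to 0.17.

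None of the 8 genes was called between the experiments, and Tmem121 differed there by -0.01. Of all probes, 1.57% were called lower there and 1.75% higher, so no call among 8 genes is near the share of all probes. On the variable side, 4 named genes had a tested probe within 300 kb. LOC100505009, described as a mu chain-like gene and 9.36 kb beyond the last member, read 9.23 and 8.35 in control, 8.29 and 7.48 with miR-26a and 9.60 and 8.61 with the sponge, a change of -0.90 ± 0.08 (adjusted p = 0.0057). LOC100505009 was also called between the experiments, with a difference of -0.89 ± 0.06 (adjusted p = 0.0280, limma). Zfp386, Vipr2 and Wdr60 were not called, with changes from 0.01 to 0.24 with miR-26a. These genes were chosen after some of their values had been seen.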
